A study of Mus musculus with 12 samples.

Results

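The DNA replication licensing genes described here are Mcm2, Mcm3, Mcm4, Mcm5, Mcm6, Mcm7, Cdc6, Cdt1, Rrm1 and Rrm2, 10 of the 19938 genes that the arrays measured with a probe set of 1 gene symbol. They were chosen by symbol, and each was represented by its brightest probe set, which for all 10 was its sole probe set of 1 symbol. Expression was measured in spleens of C57BL/6 mice on 12 Affymetrix arrays, in 3 labelled groups of 4 biological replicates. The first group is labelled TLR-deficient and septic, Trif and myd being named in the titles of its samples (Trif and MyD88 are adaptors of the Toll-like receptors, TLRs). The second is wildtype and septic, and the third wildtype and untreated. Septic mice underwent colon ascendens stent peritonitis (CASP), an operation that drains gut contents with their bacteria into the abdomen through a tube in the colon. There are no untreated TLR-deficient mice among these samples, and the labels give neither age, sex, alleles nor, for septic mice, the time from operation to sampling.

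Licensing is the step of late mitosis and G1 that makes a replication origin competent to fire. The origin recognition complex, Cdc6 and Cdt1 load rings of Mcm2 to Mcm7, the replicative helicase, onto DNA, and the rings are switched on in S phase. Rrm1 and Rrm2 form ribonucleotide reductase, which makes the deoxynucleotides that the new strands are built from. E2F transcription factors induce most of these genes when a cell leaves rest, so their transcripts are abundant in cycling cells and low in resting ones. In the mouse spleen such cycling cells include erythroblasts and myeloid precursors of the red pulp, activated lymphocytes and plasmablasts. In whole-tissue RNA, fewer cells of a type and less RNA per cell cannot be told apart.

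The promoters are shown because E2F sites are the textbook feature that licensing genes share, and the choice of members did not use sequence. Windows of 300 bases, 250 before the annotated start and 50 from it on, were taken from RefSeq on GRCm38.p6 and were found for 9 of the 10 genes (Mcm4 was not matched). The sequences TTTCGCGC and TTTGGCGC, core forms of the E2F site, were searched on both strands, and sites that overlap were counted as 1 promoter with a match. At least 1 of them stood in the windows of 5 of the 9 genes, Mcm3, Mcm5, Mcm6, Mcm7 and Cdt1. The share was 0.93% over the 26994 mouse genes with a window, and 0.814% over the 32817 windows. Below, capitals mark these matches and the rest is in lower case, 5′ to 3′ on the strand of the gene. The windows are chr8:75109259-75109558 (plus strand) for Mcm5, chr1:128359656-128359955 (minus strand) for Mcm6, chr8:122567765-122568064 (plus strand) for Cdt1 and chr12:24708004-24708303 (plus strand) for Rrm2.
Mcm5: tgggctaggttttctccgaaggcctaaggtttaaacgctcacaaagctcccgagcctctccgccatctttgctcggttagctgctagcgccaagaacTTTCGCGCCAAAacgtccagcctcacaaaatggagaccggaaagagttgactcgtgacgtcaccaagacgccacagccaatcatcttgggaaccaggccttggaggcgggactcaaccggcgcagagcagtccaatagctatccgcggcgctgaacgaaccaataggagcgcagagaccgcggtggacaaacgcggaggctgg
Mcm6: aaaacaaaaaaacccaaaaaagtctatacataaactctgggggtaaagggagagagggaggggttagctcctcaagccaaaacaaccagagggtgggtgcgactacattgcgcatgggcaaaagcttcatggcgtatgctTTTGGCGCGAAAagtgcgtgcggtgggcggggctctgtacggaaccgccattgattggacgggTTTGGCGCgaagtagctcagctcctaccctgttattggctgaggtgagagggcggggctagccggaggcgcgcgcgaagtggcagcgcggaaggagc
Cdt1: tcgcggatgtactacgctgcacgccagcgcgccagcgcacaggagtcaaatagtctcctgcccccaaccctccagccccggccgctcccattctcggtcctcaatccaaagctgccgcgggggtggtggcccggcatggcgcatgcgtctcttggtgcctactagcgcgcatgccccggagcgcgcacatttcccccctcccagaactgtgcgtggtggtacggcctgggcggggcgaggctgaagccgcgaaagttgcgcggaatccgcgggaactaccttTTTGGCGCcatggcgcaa
Rrm2: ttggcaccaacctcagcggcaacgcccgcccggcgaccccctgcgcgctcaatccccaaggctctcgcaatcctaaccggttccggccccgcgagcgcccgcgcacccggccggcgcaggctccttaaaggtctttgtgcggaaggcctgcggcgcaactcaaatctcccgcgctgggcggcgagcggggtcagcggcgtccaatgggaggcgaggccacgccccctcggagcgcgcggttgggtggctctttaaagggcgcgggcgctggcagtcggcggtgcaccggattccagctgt
In Mcm5 a match on each strand overlapped in the run TTTCGCGCCAAA, which begins 153 bases before the start. Mcm6 held an overlapping pair in TTTGGCGCGAAA and a further match 47 bases before the start. The match of Cdt1 began at base 33 of the transcript. Rrm2, shown for contrast, had neither sequence in this window, which says nothing about E2F at that gene. CCAAT, the box bound by NF-Y, searched on both strands, was in the windows of 7 of the 9 genes (all but Cdc6 and Cdt1). It was found for 41% of all genes with a window and in 37.4% of all windows. TTTGAA, the cell cycle homology region of genes expressed in late cell cycle phases, was found for 1 of 9, Mcm2. The share was 20.2% of all genes with a window and 17.9% of all windows. Among the mitosis genes listed for comparison, TTTGAA was found for 9 of 13 genes with a window, CCAAT for 12 of 13 and either E2F form for 1 of 13, Cdk1. Either E2F form was found for 5 of 19 fork enzyme genes and 3 of 17 E2F and G1 regulators.

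Several features of the arrays bear on every value that follows. The array labelled septic wildtype replicate 2 stood apart: across genes its Pearson correlation with the others was at most 0.809, against 0.956 to 0.991 among the other 11, and the standard deviation (SD) of its log2 values was 1.52 against 2.11 to 2.24 elsewhere. Results that rest on it are given with and without it. By whole-array correlation 5 of 12 arrays were most like an array of their own label. The arrays were also sorted into blocks of title numbers, M5 to M7 with M16, M8 to M11, and M12 to M15. By the same correlation 12 of 12 were most like an array of their own block. The blocks were proposed with the likeness of these arrays in view, so that count describes them and is no test. Xist, the X-inactivation transcript, lay between 3.73 and 4.33 (log2) on titles M12 to M15 and between 8.94 and 10.94 on the others, and Eif2s3y, a Y-linked gene, between 7.21 and 7.95 on M12 to M15 and between 2.48 and 4.50 on the others. So defined, the blocks are shifted by 1 title number against the labels, M8 lying with M9 to M11, M12 with M13 to M15 and M16 with M5 to M7. Whether labels or titles are displaced was not tested, and every difference between groups below holds only as far as the labels do. Markers of B cells, T cells and red pulp macrophages are all expected in spleen. With each gene averaged over the arrays, the medians over the genes of these lists were 9.34, 8.10 and 9.07 (log2), against 5.71 over all genes. Detection calls were not used here, so no value was tested against background.

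The licensing genes were high on some arrays and low on others within each label. Septic TLR-deficient replicates 1, 3 and 4 had all 10 genes above the gene's mean over 12 arrays, and replicate 2 of that label had 2 of 10 above it. Septic wildtype replicates 1 to 4 had 1, 2, 9 and 0 of 10 above the mean. Untreated wildtype replicates 1 to 4 had 0, 8, 8 and 5. So each label holds an array with at least 8 of 10 genes above the mean and an array with at most 2. Averaged over the 10 genes, the log2 distance from the mean was 0.59, -0.38, 0.61 and 0.49 on septic TLR-deficient arrays (replicates 1 to 4), -0.31, -0.59, 0.10 and -0.44 on septic wildtype arrays and -0.43, 0.16, 0.24 and -0.04 on untreated arrays. These ranges overlap between all 3 labels. The arrays with the lowest averages over the 10 genes also had the highest whole-array medians. Those medians were 5.39 on M6, 5.40 on M9, 5.54 on M10, 5.46 on M12 and 5.44 on M13, against 5.22 to 5.31 on the others. The part of array scale in this pattern was not tested.

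**Figure D1:**
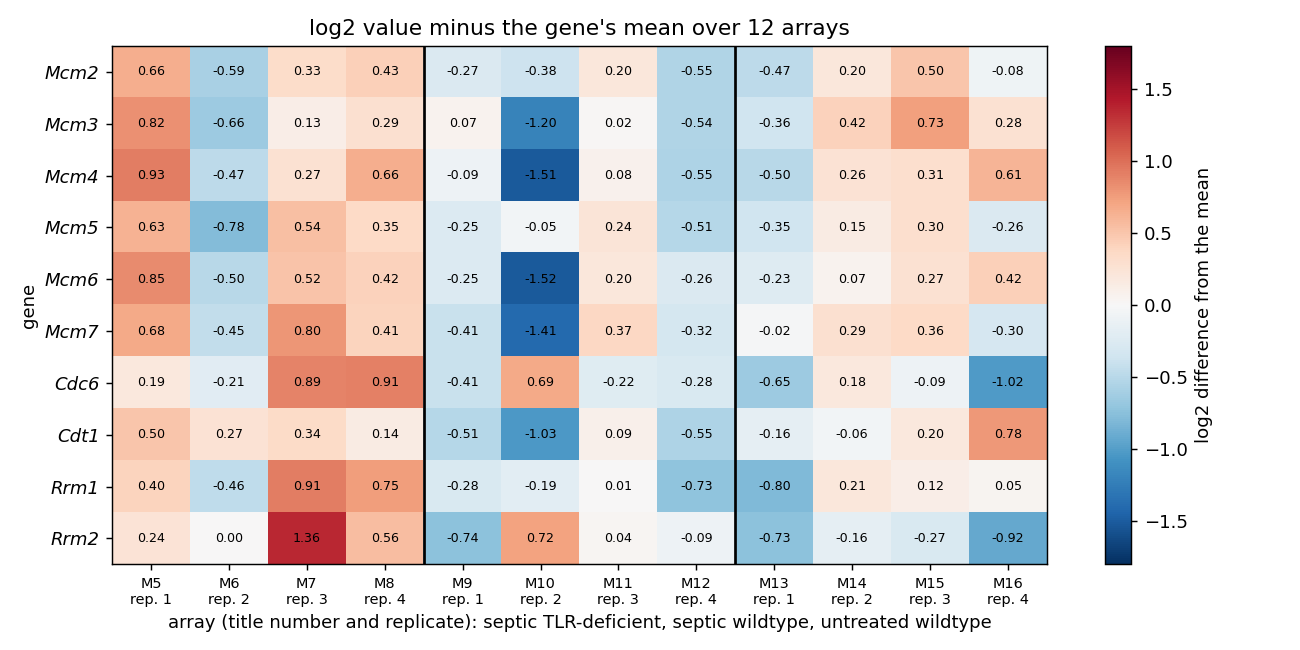
Distance of each gene's log2 value from its own mean over 12 arrays, genes in rows and arrays in columns ordered by title number (M5 to M8 septic TLR-deficient, M9 to M12 septic wildtype, M13 to M16 untreated wildtype). Whole columns tend to share a colour, as on M5, M7 and M8 (10 of 10 genes above the mean) and on M12 and M13 (0 of 10), while M10 and M16 are mixed.

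The 6 helicase subunits kept close company on the arrays. Mcm4, a subunit of the motor with Mcm6 and Mcm7, had log2 values of 8.25, 6.85, 7.60 and 7.98 on septic TLR-deficient arrays, 7.23, 5.81, 7.40 and 6.77 on septic wildtype arrays and 6.82, 7.58, 7.63 and 7.93 on untreated arrays. Its highest value and its lowest were both on septic arrays, and the lowest was that of the array standing apart. Mcm6 stood at 9.04, 7.68, 8.70 and 8.60 on septic TLR-deficient, 7.93, 6.66, 8.38 and 7.93 on septic wildtype and 7.95, 8.25, 8.45 and 8.60 on untreated arrays. Septic TLR-deficient replicate 2 was low for both genes, below all 4 untreated values for Mcm6. Mcm5, which with Mcm2 forms the gate of the ring in yeast, was at 8.31, 6.90, 8.22 and 8.03 on septic TLR-deficient, 7.43, 7.63, 7.92 and 7.17 on septic wildtype and 7.33, 7.83, 7.98 and 7.41 on untreated arrays. Unlike Mcm4 and Mcm6, it was not lowest on septic wildtype replicate 2. The remaining subunits spanned similar ranges. Mcm2 lay between 7.35 and 8.60 on septic TLR-deficient, 7.39 and 8.14 on septic wildtype and 7.47 and 8.43 on untreated arrays. For Mcm3 the ranges were 7.21 to 8.68 on septic TLR-deficient, 6.66 to 7.93 on septic wildtype and 7.50 to 8.60 on untreated arrays. For Mcm7, the further motor subunit, they were 7.55 to 8.79 on septic TLR-deficient, 6.59 to 8.36 on septic wildtype and 7.69 to 8.35 on untreated arrays. For each of the 6 subunits all 3 labels overlapped.

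The loading factors Cdt1 and Cdc6 differed from each other across the arrays. Cdt1, which carries the helicase to the origin and is destroyed in S phase, had log2 values of 8.17, 7.93, 8.01 and 7.81 on septic TLR-deficient arrays, 7.16, 6.64, 7.75 and 7.12 on septic wildtype arrays and 7.50, 7.61, 7.86 and 8.44 on untreated arrays. Every septic TLR-deficient value lay above every septic wildtype value, by a gap of which the nearest values were 7.81 and 7.75, while the untreated values overlapped both. Cdc6, the ATPase that joins the origin recognition complex to recruit the rings, stood at 6.79, 6.39, 7.49 and 7.51 on septic TLR-deficient, 6.19, 7.29, 6.38 and 6.32 on septic wildtype and 5.95, 6.78, 6.51 and 5.58 on untreated arrays. The third-highest Cdc6 value was on septic wildtype replicate 2, where Cdt1 had its lowest, and its lowest on untreated replicate 4, where Cdt1 had its highest.

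The subunits of ribonucleotide reductase differed as well. Rrm2, the small subunit, whose protein is limited to S phase, was at 8.51, 8.27, 9.63 and 8.83 on septic TLR-deficient arrays, 7.53, 8.99, 8.31 and 8.18 on septic wildtype arrays and 7.54, 8.11, 7.9981 and 7.35 on untreated arrays. The 4 septic TLR-deficient values all lay above the 4 untreated ones, and the septic wildtype values overlapped both. Rrm1, the large catalytic subunit, stood at 8.88, 8.02, 9.40 and 9.23 on septic TLR-deficient, 8.20, 8.30, 8.50 and 7.76 on septic wildtype and 7.68, 8.69, 8.60 and 8.53 on untreated arrays. All 3 labels overlapped for Rrm1, with septic TLR-deficient replicates 1, 3 and 4 above the other 9 arrays.

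**Figure D2:**
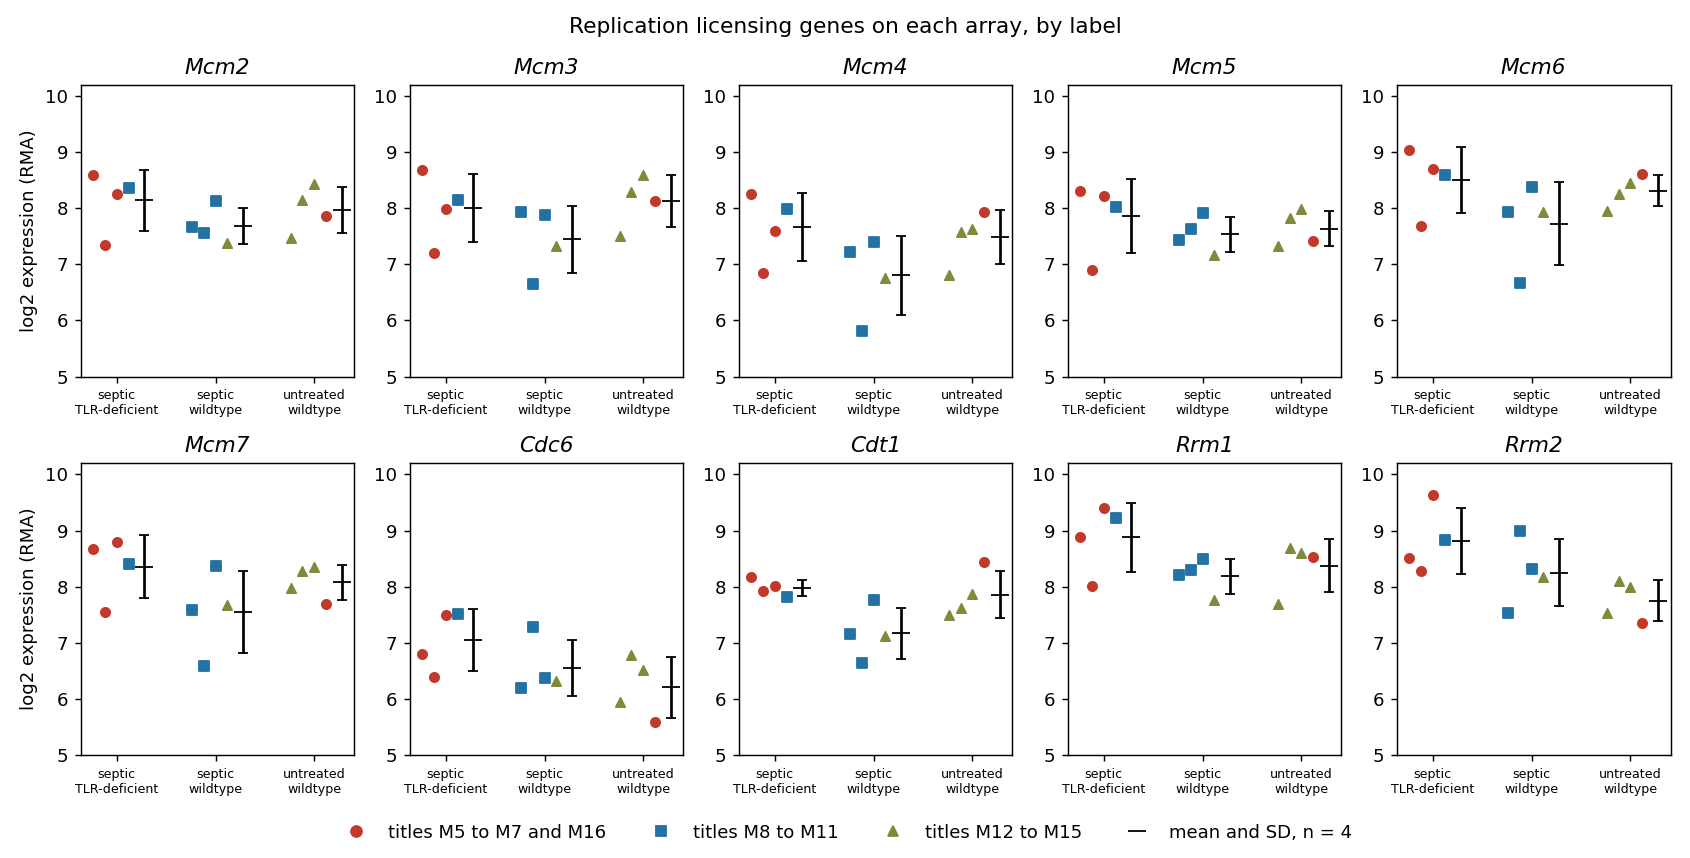
Log2 expression of the 10 genes on each of 12 arrays by label, 1 point per array in order of replicate, coloured by block of title numbers, with the mean and SD of each label (n = 4). Only Cdt1 (septic TLR-deficient against septic wildtype) and Rrm2 (septic TLR-deficient against untreated) have labels whose points do not overlap.

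Septic TLR-deficient spleens are next compared with septic wildtype ones, as far as the labels hold. The title block differs between these groups as well. M5 to M7 are all septic TLR-deficient, M8 lies with septic wildtype M9 to M11, and septic wildtype M12 lies with untreated arrays. M12 alone among the septic arrays had low Xist (4.33) and high Eif2s3y (7.69). The part of title block and of this pattern in the differences was not tested. All 10 genes had a higher mean on septic TLR-deficient arrays, though that of Mcm5 turned (-0.02) under a further quantile normalization. The log2 differences ran from 0.33 for Mcm5 to 0.87 for Mcm4, a 1.25-fold to 1.82-fold ratio, with a median of 0.63, against a median of -0.06 over all genes, of which 43.9% had a positive difference. The further quantile normalization brought the median of the 10 to 0.31, with 9 of 10 positive, and lowered Mcm2 to 0.11, Cdc6 to 0.20 and Rrm2 to 0.26. None of the 10 passed an adjusted p of 0.05 (limma), as 0% of all genes did, and their adjusted p lay between 0.590 and 0.610. At an unadjusted p under 0.05 limma called 4 of the 10, Mcm4, Mcm7, Cdt1 and Rrm1, where 6.65% of all genes were called. Many of the 10 vary together across arrays, and all were chosen with earlier results of these data known. The shares are therefore a description and no test of the list. Cdt1 averaged 7.98 ± 0.15 on septic TLR-deficient and 7.17 ± 0.46 on septic wildtype arrays (SD, n = 4 each), a difference of 0.81 (95% interval 0.26 to 1.36, unadjusted p = 0.00737, adjusted p = 0.590 in limma). Mcm4 averaged 7.67 ± 0.61 on septic TLR-deficient and 6.80 ± 0.71 on septic wildtype arrays (SD, n = 4 each), a difference of 0.87 (interval 0.04 to 1.69). Groups without overlap, the septic TLR-deficient one higher, were found for 1 of the 10, Cdt1, and for 2.05% of all genes, and with the septic TLR-deficient one lower for 0 of 10 and 1.76% of all genes.

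Without septic wildtype replicate 2 all 10 differences were still positive, as were those of 48% of all genes, and the median was 0.51. The differences of Mcm3, Mcm4, Mcm6 and Mcm7 shrank to 0.29, 0.54, 0.42 and 0.48, and no subunit of the helicase had an unadjusted p under 0.05 in limma. Those of Cdc6 and Rrm2 grew to 0.75 and 0.81, and 3 genes (Cdc6, Cdt1 and Rrm2) had an unadjusted p under 0.05, where 6.2% of all genes did. Adjusted p lay between 0.741 and 0.835 in limma. The 4 septic TLR-deficient values of Cdc6 and of Cdt1 were then above the 3 of septic wildtype arrays, which held for 3.26% of all genes, and 0 of 10 were below them, against 3.01% of all genes.

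Septic against untreated wildtype spleens bears on what the peritonitis itself does in mice with intact TLRs, as far as the labels hold. Low Xist and high Eif2s3y were found on 1 of 4 septic wildtype and 3 of 4 untreated arrays (M12 and M13 to M15), and on 0 of 4 septic TLR-deficient arrays, so this pattern and the title block differ between the groups; their part in the differences was not tested. The 6 helicase subunits, Cdt1 and Rrm1 had lower means on septic wildtype arrays, with differences from -0.69 for Mcm4 and Cdt1 to -0.10 for Mcm5, and a further quantile normalization turned those of Mcm2 (0.14), Mcm5 (0.32) and Rrm1 (0.26). Cdc6 and Rrm2 had higher means there, by 0.34 and 0.50, which array weights turned to -0.17 and -0.04. So 2 of 10 had a positive difference, against 55.1% of all genes. The median of the 10 was -0.40 (all genes 0.07). No gene of the 10 passed, with adjusted p of 0.439 to 0.835 in limma, and 1 of 10, Cdt1, had an unadjusted p under 0.05 (0.0186), where 8.81% of all genes did. Cdt1 averaged 7.17 ± 0.46 on septic wildtype and 7.85 ± 0.42 on untreated arrays (SD, n = 4 each), a difference of -0.69 (interval -1.24 to -0.14). For none of the 10 were the groups without overlap, higher or lower, against 3.68% and 2.74% of all genes. With 1 of 10 called, the share is near the background of this comparison. Without septic wildtype replicate 2 the median was -0.23, 2 of 10 differences were positive (55.3% of all genes), Cdt1 was again the 1 of 10 with an unadjusted p under 0.05 in limma (5.45% of all genes), and 0 of 10 had groups without overlap, higher (4.3%) or lower (3.38%).

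Between septic TLR-deficient and untreated wildtype spleens both the genotype and the operation differ, and the arrays are those of the comparisons above. Rrm2 and Cdc6 stood out in size, with differences of 1.06 (interval 0.33 to 1.80) and 0.84 (interval 0.10 to 1.58), or 2.09-fold and 1.79-fold. Rrm2 averaged 8.81 ± 0.59 on septic TLR-deficient and 7.75 ± 0.36 on untreated arrays (SD, n = 4 each). Cdc6 averaged 7.05 ± 0.55 on septic TLR-deficient and 6.21 ± 0.54 on untreated arrays (SD, n = 4 each). The helicase subunits had differences between -0.12 (Mcm3) and 0.28 (Mcm7), and no interval among them left out 0. Signs so close to 0 turned for Mcm2, Mcm3 and Mcm4 when certain single arrays were left out, and for Mcm2 under array weights (-0.04). In all, 9 of 10 had a positive difference, against 51.9% of all genes. In limma the adjusted p of all 10 was 0.99996, and 2 of 10 (Rrm2 at 0.00801 and Cdc6 at 0.0284) had an unadjusted p under 0.05, where 1.88% of all genes did. In a fit without septic wildtype replicate 2, which lends its spread to this comparison, the same 2 of 10 were called and 6.14% of all genes. Groups without overlap, septic TLR-deficient higher, were found for Rrm2 alone, and for 2.4% of all genes, and with it lower for 0 of 10 and 0.998% of all genes.

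**Figure D3:**
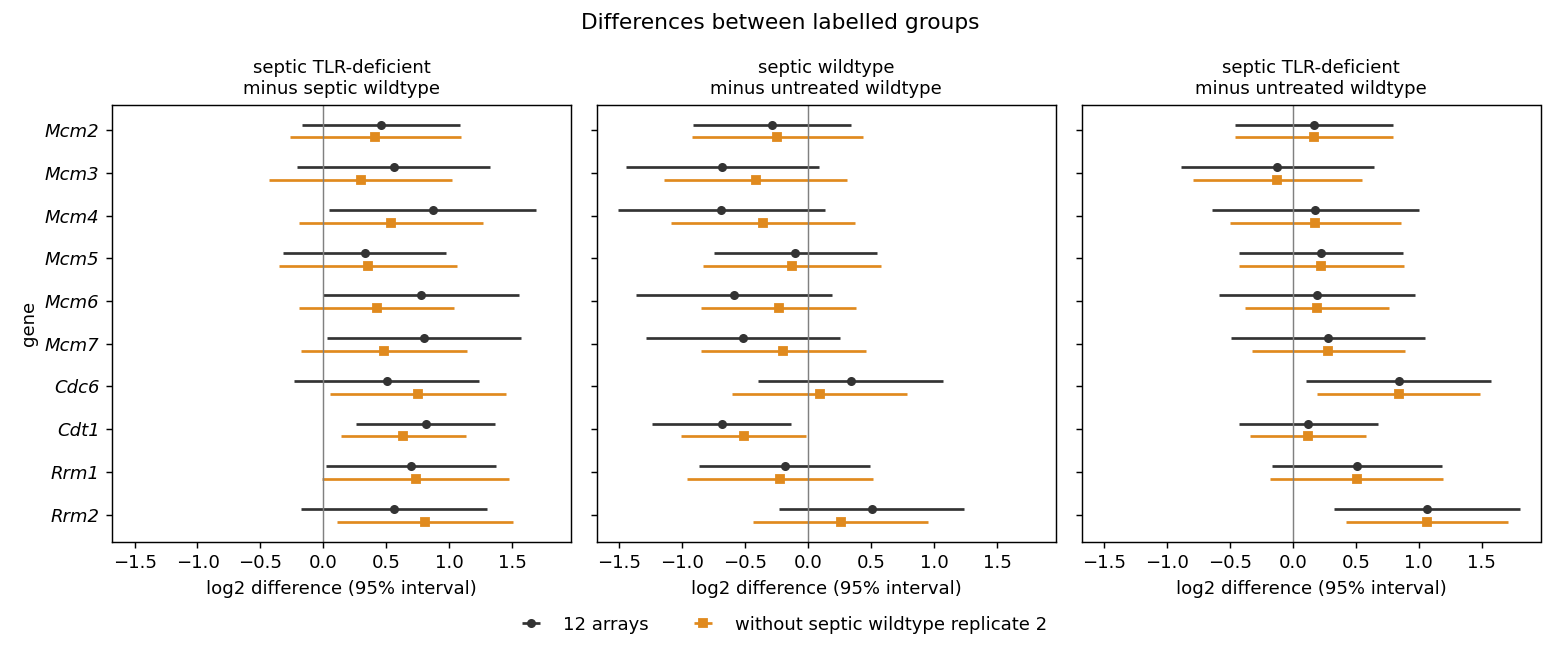
Log2 differences between labelled groups for each gene with 95% intervals from limma, in 3 comparisons, over 12 arrays (dots) and without septic wildtype replicate 2 (squares). In the left panel the dots lie between 0.33 and 0.87, and leaving out that array lowers Mcm3, Mcm4, Mcm6 and Mcm7 and raises Cdc6 and Rrm2. A further quantile normalization turns the dots of Mcm5 in the left panel and of Mcm2, Mcm5 and Rrm1 in the middle one, and array weights turn Cdc6 and Rrm2 in the middle one and Mcm2 in the right one.

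Sorting the arrays by title block did not separate the licensing genes. The blocks were proposed with values of these arrays in view, so their ranges are a description. Averaged over the 10 genes, the distance from the mean spanned -0.38 to 0.61 on M5 to M7 with M16, -0.59 to 0.49 on M8 to M11 and -0.44 to 0.24 on M12 to M15. Within the last block M12 and M13, 1 labelled septic and 1 untreated, had all 10 genes below the mean, and M14 and M15 had 8 of 10 above it. Cdt1 alone had a block clear of the rest, at 7.93 to 8.44 on M5 to M7 with M16, against 6.64 to 7.81 on M8 to M11 and 7.12 to 7.86 on M12 to M15. Such a separation of that block upwards was found for 1.72% of all genes. None of the 10 had that block below all other arrays (1.85% of all genes), M8 to M11 above (1.18%) or below them (2.12%), or M12 to M15 above (0.757%) or below them (0.818%).

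Among themselves the helicase subunits varied together across arrays, and so did Cdc6 with Rrm2. Pearson correlations across arrays are given as descriptions, since all values of an array share its RNA, its cell mixture and its normalization. Over 12 arrays the 15 pairs of helicase subunits had r between 0.58 and 0.96 with a median of 0.80, and over the 11 arrays without septic wildtype replicate 2 a range of 0.63 to 0.96. Mcm4 and Mcm6 were most alike at 0.96 (0.92 over 11 arrays), and Mcm2 and Mcm5 at 0.93 (0.96 over 11 arrays). Cdc6 and Rrm2 correlated at 0.92 (0.90 over 11 arrays). Rrm2 had r of -0.14 with Mcm3, -0.07 with Mcm4 and -0.01 with Mcm6 over 12 arrays, and 0.11, 0.27 and 0.43 over 11. Mcm7 had r of 0.21 with Cdc6 and 0.22 with Rrm2 over 12 arrays, and 0.73 and 0.71 over 11, so the low values of this pair rest on septic wildtype replicate 2. Cdt1 and Cdc6, which act together at the origin, had r of -0.18 (0.07 over 11 arrays). With the helicase subunits Cdt1 had r from 0.30 (Mcm5) to 0.82 (Mcm4), and over 11 arrays from 0.36 (Mcm5) to 0.67 (Mcm4). The subunits of ribonucleotide reductase had r of 0.61 (0.70 over 11 arrays), and Rrm1 was closer to Mcm2 and Mcm5, at 0.84 with each.

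**Figure D4:**
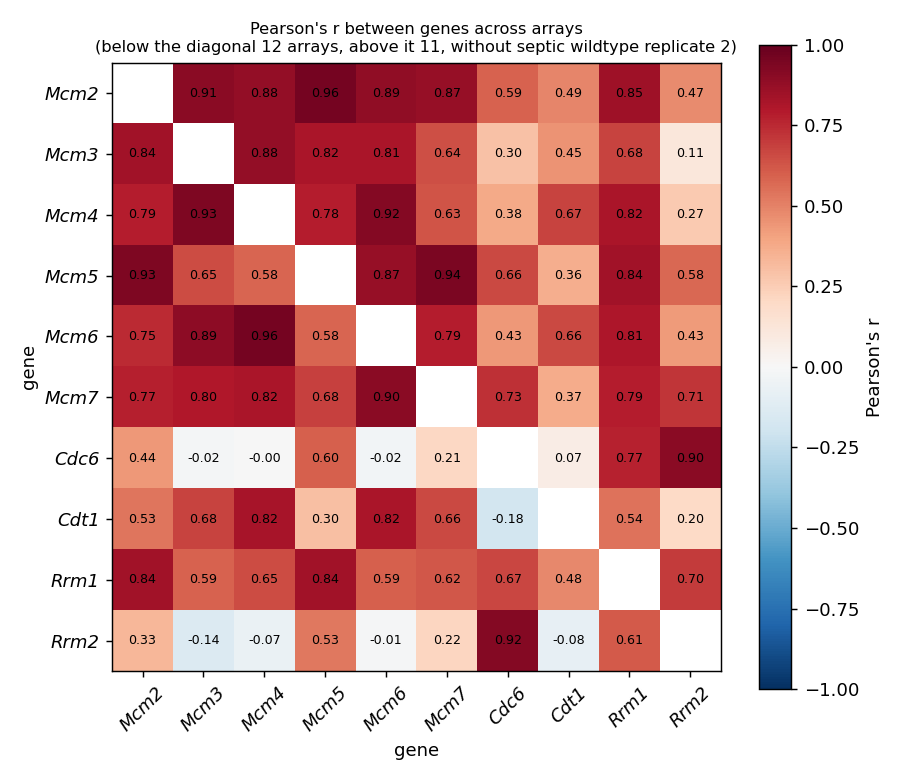
Pearson's r between the log2 values of each pair of genes, over 12 arrays below the diagonal and over 11 arrays, without septic wildtype replicate 2, above it. The block of Mcm2 to Mcm7 lies between 0.58 and 0.96 over 12 arrays, and the pair of Cdc6 and Rrm2 stands at 0.92 while both are at most 0.22 with Mcm3, Mcm4, Mcm6 and Mcm7. Above the diagonal Mcm7 reaches 0.73 with Cdc6 and 0.71 with Rrm2, and Mcm6 0.43 with each.

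The genes whose pattern over 12 arrays was most like the mean of the 10 were Top2a, the topoisomerase that untangles replicated DNA (r = 0.96), Slbp, which binds histone mRNA (0.95), Pcna, the sliding clamp of DNA polymerases (0.94), Gins1, a subunit of the active helicase (0.93), B3glct, a glucosyltransferase of the secretory pathway (0.91), Cox8a, a subunit of cytochrome c oxidase (0.90), Kif20a, a kinesin of cell division (0.90), and Coq7, an enzyme of ubiquinone synthesis (0.90). Over the 11 arrays without septic wildtype replicate 2, 5 of these 8 were still among the 8 most alike, Top2a first at 0.95. Cox8a, Kif20a and Coq7 then fell to ranks 20, 15 and 24. Cox8a varied little, between 8.37 and 8.74 (log2) over 12 arrays. Top2a stood at 8.33, 7.55, 8.49 and 8.32 on septic TLR-deficient, 7.45, 7.24, 7.70 and 7.60 on septic wildtype and 7.37, 7.88, 7.93 and 7.74 on untreated arrays. As for the mean of the 10, septic TLR-deficient replicate 2 was the exception to high values under its label.

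Genes that act before and after licensing were listed by role, with the same caution that no single gene passed in limma in any of the 3 comparisons. The origin recognition complex and licensing control list (8 genes measured) had higher means on septic TLR-deficient than septic wildtype arrays for 8 of 8 with a median difference of 0.51 (7 of 8 under a further quantile normalization), and 0 passed. Orc6, a subunit of the origin recognition complex, averaged 7.64 ± 0.52 on septic TLR-deficient and 6.99 ± 0.24 on septic wildtype arrays (SD, n = 4 each), and its groups did not overlap. Gmnn, whose product geminin inhibits Cdt1, averaged 5.84 ± 0.69 on septic TLR-deficient and 5.70 ± 0.88 on septic wildtype arrays (SD, n = 4 each), with its highest value, 6.99, on septic wildtype replicate 2. The Gmnn difference was 0.13, and 0.56 without that array. Orc1, the ATPase subunit of the complex, had a difference of 0.26 (0.48 without that array).

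Helicase activation and origin firing genes had higher means on septic TLR-deficient than septic wildtype arrays for 15 of 16, with a median difference of 0.45 (14 of 16 after quantile normalization), and 0 passed. Mcm10, which helps switch the helicase on, had a difference of 0.57 (SE 0.21, where SE is the standard error), Gins1 of 0.67 (SE 0.24), Gins2 of 0.10 (SE 0.21; 0.30 when septic wildtype replicate 2 was left out) and Cdc45, the partner of the GINS complex, of 0.16 (SE 0.26; 0.41 without that array). Replication fork enzymes were higher in 21 of 23, with a median of 0.51 (20 of 23 after quantile normalization), and 0 passed. In that list Pcna had a difference of 0.37 (SE 0.23), Pole2, a subunit of the leading-strand polymerase, of 0.62 (SE 0.27) and Prim1, the catalytic subunit of primase, of 0.75 (SE 0.37; 0.41 without that array). Without septic wildtype replicate 2 the medians of these 3 lists were 0.40, 0.36 and 0.36.

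Nucleotide supply genes had higher means on septic TLR-deficient than septic wildtype arrays in 11 of 12 with a median of 0.30, but in 7 of 12 with a median of 0.05 without septic wildtype replicate 2, and 6 of 12 after quantile normalization. Tk1, the thymidine kinase of S phase, had a difference of 0.89 (0.53 without that array), Tyms, thymidylate synthase, of 0.14 (0.45), Rrm2b, the small subunit used outside S phase, of -0.00253 (-0.10) and Samhd1, which degrades deoxynucleotides, of 0.43 (-0.17). E2F and G1 regulators had a median of 0.36 (0.16 without that array, 0.14 after quantile normalization), with E2f1, an activator, at 0.30, and E2f2, a further activator, and E2f8, a repressor of the family, at 0.61 and 0.64. Cdkn1a was not analysed here. Mitosis genes were higher in 15 of 15 (13 of 15 after quantile normalization) with a median of 0.70, Mki67, the proliferation antigen, among them at 0.77 (SE 0.28) and Cdk1, the kinase of mitotic entry, at 0.70 (SE 0.40). In none of these lists did a gene pass in limma, and an unadjusted p under 0.05 was found for 2 of 8 origin recognition, 4 of 16 helicase activation, 10 of 23 fork, 1 of 12 nucleotide supply, 0 of 21 E2F and G1 and 10 of 15 mitosis genes, against 6.65% of all genes.

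Between septic and untreated wildtype arrays the same lists had medians of -0.36 (origin recognition), -0.11 (helicase activation), -0.29 (fork enzymes), -0.34 (nucleotide supply), -0.33 (E2F and G1) and 0.03 (mitosis), against 0.07 over all genes, and quantile normalization brought these to between -0.15 and 0.35. Array weights gave mitosis genes a median of -0.24 with 0 of 15 higher, against 9 of 15 without weights. Between septic TLR-deficient and untreated arrays the medians were 0.18 (origin recognition), 0.31 (helicase activation), 0.24 (fork enzymes), -0.10 (nucleotide supply), -0.02 (E2F and G1) and 0.63 (mitosis), with 15 of 15 mitosis genes and 16 of 16 helicase activation genes higher. Lists were counted without a test of the list.

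Markers of cell types that could hold cycling cells moved with some of the genes. Plasma cell markers (7 of 7 measured) had summary levels, as mean distance from the gene's mean, of -0.17 to 0.26 on septic TLR-deficient, -0.42 to 0.11 on septic wildtype and -0.24 to 0.31 on untreated arrays, and over 12 arrays their r with Mcm4 was 0.91 and with Cdt1 0.82, while with Rrm2 it was 0.06. Erythroid markers (11 of 14 measured) spanned 0.24 to 0.88 on septic TLR-deficient, -1.38 to 0.67 on septic wildtype and -1.31 to -0.03 on untreated arrays, with r of 0.83 with Rrm2 and 0.74 with Cdc6 and -0.27 with Mcm4. Granulocyte precursor markers (6 of 6 measured) reached 1.35 on septic TLR-deficient replicate 3, where Rrm2 and Rrm1 were highest, and correlated at 0.84 with Rrm2 and 0.03 with Mcm4. The median log2 level over that list was low, at 5.54 against 5.71 over all genes. Over 11 arrays plasma cell markers had r of 0.89 with Mcm4, 0.74 with Cdt1 and 0.30 with Rrm2. Erythroid markers then had 0.81 with Rrm2, 0.71 with Cdc6 and -0.09 with Mcm4, and granulocyte precursor markers 0.85 with Rrm2 and 0.21 with Mcm4. Germinal centre B cell markers (5 of 6 measured) had their highest level, 0.50, on untreated replicate 2 and a median log2 level over the list of 6.49. B cell markers (7 of 8 measured) spanned -0.93 to 0.74 on septic TLR-deficient, -1.13 to 0.83 on septic wildtype and -0.75 to 0.56 on untreated arrays, with r of 0.01 with the mean of the 10 genes (-0.25 over 11 arrays), and T cell markers (7 of 8 measured) had 0.24 (0.07). With that mean plasma cell markers had r of 0.84 (0.80 over 11 arrays), erythroid markers 0.17 (0.35) and granulocyte precursor markers 0.50 (0.65). Between labels, erythroid markers had higher means on septic TLR-deficient arrays for 11 of 11 against septic wildtype (median difference 0.58; 10 of 11 after quantile normalization) and 11 of 11 against untreated arrays (1.07). Pancreas acinar markers (5 of 6 measured), which mark tissue next to the spleen, had lower means on septic TLR-deficient arrays for 5 of 5 against septic wildtype (-1.36) and against untreated arrays (-2.17), and their summary level was highest on M12 (septic wildtype, 2.84) and M14 (untreated, 3.90). Mature neutrophil markers (6 of 6 measured) had lower means on septic TLR-deficient arrays for 4 of 6 against septic wildtype (median -0.38) and for 4 of 6 against untreated arrays (-1.48). Plasma cell markers were divided, with higher means on septic TLR-deficient than septic wildtype arrays for 5 of 7 (4 of 7 without septic wildtype replicate 2). Against untreated arrays 4 of 7 were higher on septic TLR-deficient and 2 of 7 on septic wildtype arrays. The part of cell mixture in the differences above was not tested.

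**Figure D5:**
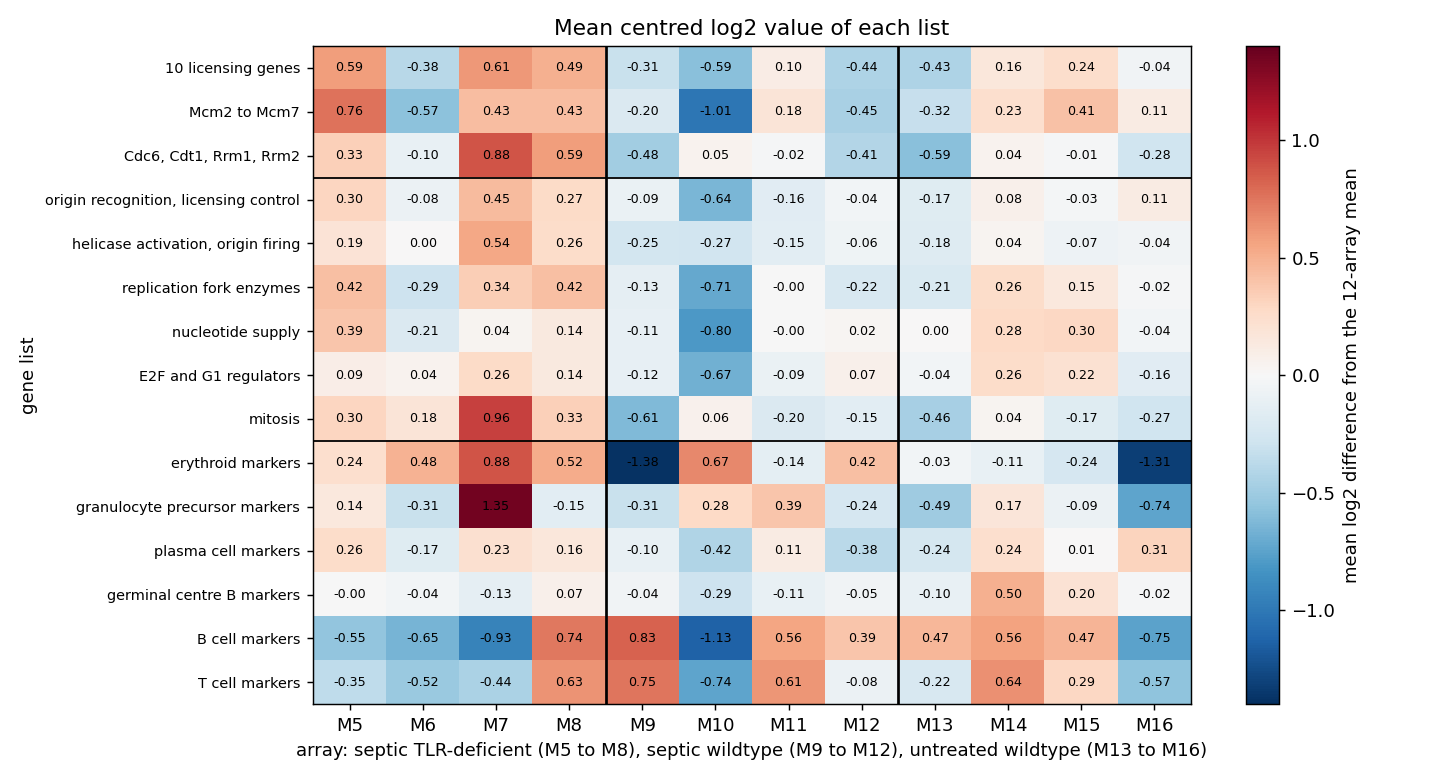
Mean distance from the 12-array mean (log2) of the licensing genes, of other replication and cell cycle lists and of cell type marker lists on each array, arrays ordered by title number. The rows of Mcm2 to Mcm7 and of fork enzymes share high columns (M5, M7, M8) and low ones (M6, M10, M12, M13). On untreated M14 and M15 Mcm2 to Mcm7 are at 0.23 and 0.41, against 0.43 on M7 and on M8. Fork enzymes are at 0.26 on M14 and 0.15 on M15. Erythroid markers are lowest on M9 and M16.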

How the data were processed

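Total RNA from mouse spleen was labelled with Affymetrix whole-transcript kits, per the labels' protocols. A sentence there on mutants of an unrelated gene was not used. Deposited were log2 values for each probe set, made by the authors with RMA in Affymetrix Expression Console, per the submitters' processing notes, versions not given. RMA subtracts background, is meant to equalise the distributions of the arrays and summarises probes. The deposited arrays still differed, with median log2 values from 5.22 to 5.54 and SDs from 1.52 to 2.24. Values lay between 1.33 and 13.79. Of 35557 probe sets, 21789 carry 1 symbol. The brightest per gene gave 19938 genes, with no filter on dim genes.

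The 3 comparisons were fitted with limma 3.58.1 in R 4.3.3, with 1 mean per label over 12 arrays, moderated variances and two-sided p, adjusted by Benjamini-Hochberg over every gene (threshold 0.05). Differences are first label minus second. The number of arrays limits the precision. The labels call replicates biological without naming animals, so p-values weigh differences against the spread between these samples. Same-numbered arrays did not deviate together (r of -0.54 to 0.14 between deviations from group means), so no block was used. Alternatives were a further quantile normalization, median centring, leaving out the dimmest 25% of genes, means of probe sets, array weights, trended and robust variances, a fit of only 2 groups, a replicate block and leaving out each array. The fit was tested on simulated data.

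Members, gene lists and alternatives were chosen with earlier results of these data known. Named beside the members were pathway genes fixed by role (Cdkn1a and 1 other not reported here) and the 8 genes most like the members' mean. Xist and Eif2s3y were named to describe the arrays. Promoters came from RefSeq (GRCm38.p6). Figures were drawn with matplotlib 3.10.9.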

Additional observations from a re-analysis of the deposited data

Results flagged for a closer look

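Within labels of 4 arrays, a single array stood far from the other 3 for 2 of the 30 combinations of gene and label examined, by Dixon's criterion at the 95% level, which chance meets in about 1 of 20 groups. Cdc6 was at 7.29 on septic wildtype replicate 2, where the other 3 arrays of the label lay between 6.19 and 6.38. That array is the one with the narrow spread of values. Rrm1 was at 7.68 on untreated replicate 1, where the other 3 untreated arrays lay between 8.53 and 8.69, and all 10 licensing genes were below their means on that array.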

How the results depend on the processing

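In none of the alternatives did 1 of the 10 genes pass an adjusted p of 0.05 in limma, and over them the adjusted p of the genes was 0.295 to 0.984 for septic TLR-deficient against septic wildtype, 0.164 to 0.980 for septic wildtype against untreated and 0.195 to 0.999997 for septic TLR-deficient against untreated. The number of genes passing was 0 under every alternative and comparison except array weights in septic wildtype against untreated, where 1 passed (Smoc2, lower on septic arrays, named after its value was seen); at an unadjusted p under 0.05 the fit over 12 arrays had 1325, 1756 and 375 genes. A further quantile normalization brought the median difference of the 10 genes in septic wildtype against untreated to -0.0067, and turned Mcm5 (-0.020) in septic TLR-deficient against septic wildtype and Mcm2 (0.14), Mcm5 (0.32) and Rrm1 (0.26) in septic wildtype against untreated. Array weights turned Cdc6 (-0.17) and Rrm2 (-0.043) in septic wildtype against untreated and Mcm2 (-0.044) in septic TLR-deficient against untreated. The cause was not tested. Leaving out each array gave medians of 0.51 to 0.83, -0.61 to -0.23 and 0.07 to 0.51 in the comparisons in that order, and ranges across 0 for Mcm5 in septic wildtype against untreated (-0.23 to 0.021) and for Mcm2 (-0.00054 to 0.43), Mcm3 (-0.35 to 0.14) and Mcm4 (-0.046 to 0.45) in septic TLR-deficient against untreated. With the replicate block 0 genes passed in each comparison, the medians stayed at 0.63, -0.40 and 0.21, and the lowest adjusted p of a member was 0.626, 0.473 and 0.999971; 0, 2 and 0 of 8 arrays deviated most like the array of their own number in the other label. Of 600 differences recomputed for single genes, 586 kept their direction and their side of the threshold. With 4 arrays per label, every 95% interval of the members' differences in the main fit spans more than 1 log2 unit.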
